A study of Mus musculus with 24 samples.

Results

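In unirradiated tumour myeloid cells, RNA pulled down through its N6-methyladenosine (m6A) was compared between Ythdf2 cKO and WT mice, across 6 m6A IP libraries out of the 24 libraries of the series. Members were genes reaching 10 counts or more in 3 or more of these 6 libraries, which kept 15139 of 54446 gene identifiers, together with the peaks called in each of the 6 libraries. The cells were CD11b+ myeloid cells sorted from subcutaneous tumours of MC38, a mouse colon carcinoma line, in C57BL/6J mice. The WT Ctrl IP group (3 libraries) came from Ythdf2 f/f mice without Cre, and the cKO Ctrl IP group (3 libraries) from Ythdf2 f/f mice carrying Lyz cre, so that both genotypes had the floxed allele and neither was irradiated. Lyz cre is driven from the Lyz2 locus and is active in macrophages and neutrophils, and cells of other lineages in the CD11b gate can escape it. Several mice were pooled for each replicate, and the replicates are described in the methods as technical at one point and as biological at another, so p-values measure the spread between libraries. Input libraries of the same 2 groups (3 each), made without the antibody step, are given beside the IP values. Whether Input and IP of the same number came from the same RNA pool is not stated in the sources used here, so IP over Input compares group levels and is not a ratio within a sample.

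m6A is a methyl mark that a writer complex, with METTL3 and METTL14 at its core, places on adenosines of messenger RNA, often near stop codons and in long exons within the motif DRACH. YTHDF2 is a reader of the mark. It binds methylated transcripts in the cytoplasm and brings them to the CCR4-NOT deadenylase, which shortens their poly(A) tails and leads to decay. The count of a gene in an IP library therefore follows both the amount of its RNA and the share of that RNA which the antibody binds, whereas its Input count follows the amount alone. In these bulk samples, fewer cells of a type and less RNA per cell cannot be told apart.

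The 6 IP libraries held 70551375 to 73652590 gene counts and the 6 Inputs 71303126 to 83661576, so counting error was small for all but rare transcripts. The biological coefficient of variation of the IP libraries was 4.35%, and the first principal component (40.1% of the variance) separated the genotypes. Replicates were not copies of each other, since every pair of the same group differed by more than sampling noise (chi-square per degree of freedom 3.96 to 8.47 among IP pairs). The labels gave no batch or date.

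The targeted genes were examined first. Lyz2, which encodes lysozyme M and whose locus carries Cre, stood at 17970.5, 17649 and 17096 CPM (counts-per-million, scaled by TMM) in the WT Ctrl IP libraries, against 94.9, 99.9 and 95.3 in cKO Ctrl IP. It was 182-fold lower in cKO (log2 −7.51, SE 0.0265, edgeR adjusted p 9.7e-46), the largest fall among genes of at least 5 CPM. In the Inputs Lyz2 was lower in those labelled cKO as well, at 300 ± 3.89 CPM against 20686 ± 293 (SD, n = 3 each, log2 −6.10). Ythdf2 itself stood at 232, 229 and 221 CPM in WT Ctrl IP and at 212, 194 and 195 in cKO Ctrl IP, a small fall (log2 −0.18 with SE 0.0327, adjusted p 4.75e-05 by edgeR). In the Inputs Ythdf2 was higher in those labelled cKO, at 178 ± 6.12 CPM against 97.3 ± 1.19 (SD, n = 3 each), so its counts go against a plain loss of transcript, and all directions rest on the labels. Reads of the floxed exon could not be counted apart from the rest of the gene. Lyz1 is a near copy of Lyz2, so its own values (14.9 ± 1.71 CPM in WT IP and 6.01 ± 0.279 in cKO IP) are uncertain, and how far the genes share reads was not tested.

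Fewer peaks were called in the cKO. The 3 WT Ctrl IP libraries held 17408, 17415 and 17608 peaks and the cKO Ctrl IP libraries 15503, 16263 and 16056, which do not overlap. The mean difference was −1536 peaks, with an exact permutation test (two-sided) giving p = 0.1, the smallest value that 3 against 3 libraries allow. Peaks of at least 4-fold enrichment showed the same order, with 7179, 6991 and 6976 in WT and 6110, 6059 and 6137 in cKO, as did the number of peaks scaled by gene counts (242 ± 3.37 and 222 ± 3.34 on the counts-per-million scale, SD, n = 3 each). The median fold enrichment at a peak, as the authors' peak caller gave it, was 3.42 to 3.502 in WT libraries and 3.27 to 3.41 in cKO libraries. The peaks covered 5649 to 5747 kb in the WT libraries and 5056 to 5225 kb in the cKO libraries.

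Most peaks were common to the genotypes. Consensus peaks, meaning those found on the same strand in all 3 libraries of a genotype, numbered 12181 in WT and 10918 in cKO. Of the WT consensus peaks 75.9% overlapped a peak in all 3 cKO libraries and 4.82% (587) overlapped none in any. Of the cKO consensus peaks 85.4% were found in all 3 WT libraries and 1.93% (211) in none. Both counts of genotype-specific peaks depend on the rule, since leaving out a library gave 792 to 1028 in WT and 328 to 455 in cKO, and a fold of at least 4 in all 3 libraries gave 125 and 43. Among 9138 peaks present in all 6 libraries, the fold enrichment was lower in every cKO library than in every WT library for 1263 (13.8%) and higher for 452 (4.95%). Peaks called in WT only had their summit in coding sequence in 45.8% of cases and in a 3′ UTR in 13.3%, and those called in cKO only in 45.5% and 21.3%. All WT consensus peaks gave 53.2% and 14.7%.

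**Figure D1:**
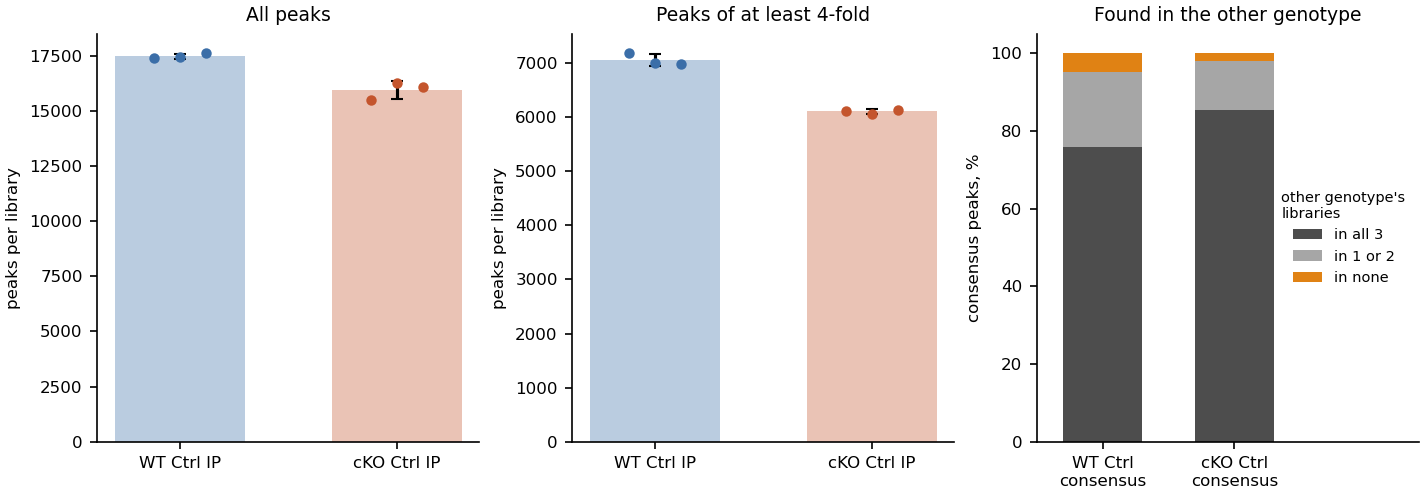
Peaks per library in WT Ctrl IP (blue) and cKO Ctrl IP (red), for all peaks and for those of at least 4-fold enrichment (points are libraries, bars the mean of 3 and error bars the SD), and the share of each genotype's consensus peaks found in all 3, in 1 or 2, or in none of the other genotype's libraries. All 3 WT libraries lie above all 3 cKO libraries in both counts, and 4.82% of WT and 1.93% of cKO consensus peaks were in none of the other's libraries.

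Peaks called in a single genotype are shown with the DRACH nearest to their summit, because these are the places where the binding calls of the genotypes differed most. DRACH was searched on the peak's strand within 50 bases of the summit. Its first base is A, G or T, its second A or G, then A and C, and its last A, C or T. It stands in capitals, with 10 bases to each side, read from the RefSeq sequence of GRCm38 and written 5′ to 3′. Each location is that of the summit, not of the motif. In Herpud1 the summit is the last base in capitals, so the rest of the motif lies upstream of the base so labelled. Among the 8 exonic WT-only peaks of highest mean fold in genes with at least 10 CPM in the Inputs of both genotypes, 6 are printed.
Zbp1, coding sequence, chr2:173215891-173215915, minus strand: tgcaagcccaGGACCctcttcccac
Herpud1, coding sequence, chr8:94386578-94386602, plus strand: ccagcgacgcAGACAtggagcccga
Themis2, coding sequence, chr4:132792627-132792651, minus strand: ccaaaaggagAAACTgagtccatgt
Hivep2, coding sequence, chr10:14149567-14149591, plus strand: atggtgaaaaGGACActtttggtac
Aldh1a2, coding sequence, chr9:71283369-71283393, plus strand: ctcttgtagtGGACTacgctgtgga
Eif2ak2, 3′ UTR, chr17:78854814-78854838, minus strand: ggatgaggaaGGACTctggcttttg
Zfp408 and Ergic2 complete that set. Zbp1 encodes a sensor of nucleic acids in Z form, and its peak had folds of 12.3, 11.7 and 12.3 in the WT libraries and was called in no cKO library. The Zbp1 gene was at 41.0 ± 2.19 CPM in WT IP and 35.4 ± 0.817 in cKO IP (SD, n = 3 each), while its Input rose from 10.6 ± 0.642 to 23.3 ± 0.617 CPM. The Aldh1a2 peak (folds 8.31, 10.1 and 9.24) lies in the gene of retinaldehyde dehydrogenase, which makes retinoic acid, and Hivep2 encodes a zinc finger transcription factor (folds 8.36, 9.23 and 10.2). Eif2ak2 encodes PKR, a kinase activated by double-stranded RNA.

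Of the 8 peaks chosen in the same way that were called in cKO only, 5 are printed.
Mdn1, coding sequence, chr4:32757746-32757770, plus strand: atgagaagtcTGACAgtgaggatgg
Aspm, coding sequence, chr1:139490300-139490324, plus strand: ggtcgttaccAGACTctctccactt
Syne3, coding sequence, chr12:104968006-104968030, minus strand: tgcacaacgtGGACAatcaggctgt
Atad2, 3′ UTR, chr15:58095452-58095476, minus strand: tatatcatcaTAACTgatgcaagat
Chil3, coding sequence, chr3:106164234-106164258, minus strand: gttgggctaaGGACAggccaataga
The peak of highest fold in this set, in Sord (folds 10.8, 9.42 and 11.6), had no DRACH in its window, and Specc1 is also in the set. Mdn1 encodes a ribosome assembly ATPase, Aspm a spindle protein, Atad2 a chromatin protein and Chil3 a chitinase-like protein of myeloid cells. The Chil3 gene was at 452 ± 9.35 CPM in WT IP and 633 ± 17.9 in cKO IP, whereas its Input fell from 539.5 ± 19.7 to 335 ± 9.72 CPM. A DRACH stood in 86.5% of WT-only and 85.8% of cKO-only windows of 101 bases, in 88.7% of the consensus windows of either genotype, and in 85.7% of windows of the same length centred 1000 bases from the WT consensus summits. Windows 1000 bases from the genotype-specific summits held it in 86.5% of cases for WT-only and 86.0% for cKO-only peaks. The form GGACT was in 13.1% of WT-only and 11.4% of cKO-only windows, against 11.5% of WT consensus windows and 8.84% of those 1000 bases away. The windows 1000 bases from the WT-only and cKO-only summits held it in 10.6% and 7.58% of cases. All these 1000 bases were counted along the genome and not along the transcript, so the comparison windows can lie in introns or outside genes.

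Gene counts moved with the peak sets, which come from the same libraries. Of 456 tested genes with a WT-only peak, 289 (63.4%) were called lower in cKO IP and 15 (3.29%) higher, where 17.6% and 16.7% of all genes tested were. Of 176 tested genes with a cKO-only peak, 115 (65.3%) were called higher and 4 (2.27%) lower. Their Inputs leaned the other way, with 183 of the 456 called higher and 19 lower, and 16 of the 176 called higher and 63 lower. Among all genes tested, 12.5% were called higher and 10.3% lower in the Input. The control library of the peak calls is not given in the sources used here. If it was the Input, the lean of the Inputs is not independent of how the peak sets were made. The median IP change was −0.16 in the first set and 0.22 in the second on the log2 scale, and the median Input change 0.09 and −0.05. Over all 15139 genes both medians were under 0.01 in size (0.0013 and 0.0046).

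**Figure D2:**
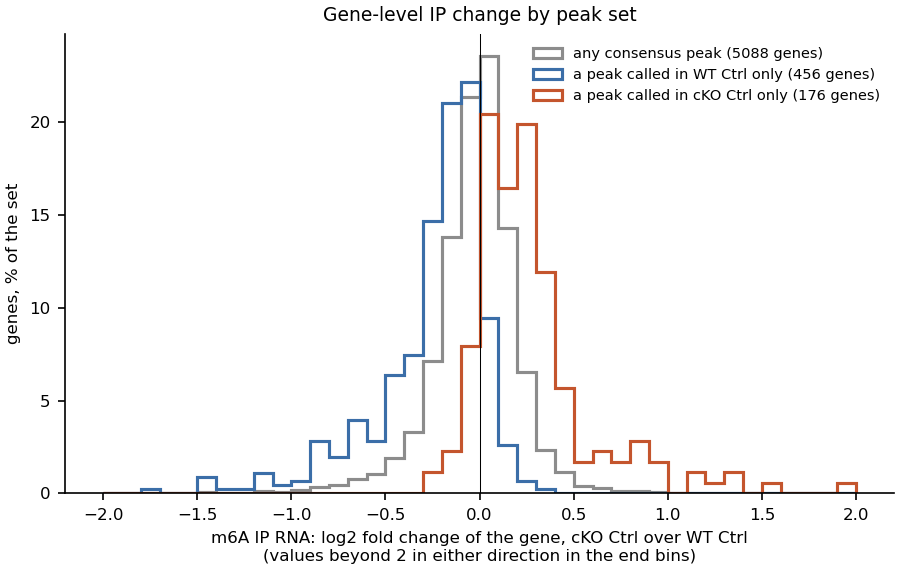
Distribution of the gene-level IP change (log2, cKO Ctrl over WT Ctrl, horizontal) in 5088 genes with any consensus peak (grey), 456 with a peak called in WT only (blue) and 176 with a peak called in cKO only (red), as the percent of each set (vertical). The blue curve sits to the left of 0 and the red to the right, with medians of −0.16 and 0.22.

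At the gene level, 5202 of 15139 genes (34.4%) were called between cKO Ctrl IP and WT Ctrl IP by edgeR's quasi-likelihood test (adjusted p under 0.05), 2534 higher (16.7%) and 2668 lower (17.6%). Most changes were small. The median size among called genes was 0.24 on the log2 scale, and 308 genes (5.92% of those called) changed at least 2-fold, 117 upward and 191 downward. In 6730 genes (44.5%) the 3 cKO libraries lay entirely above or below the 3 WT libraries. Genes with a consensus peak were called more often (48.2% of 5088) than those without (27.4% of 10051), and they also had a higher level in WT IP (median 57.5 against 4.91 CPM). Protein-coding genes were called in 39.5% of cases and lincRNA genes in 16.5%.

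Among the 15 protein-coding genes with the largest falls were regulators, enzymes and receptors. Hic1, a zinc finger repressor (chromosome 11, 75164565 to 75169519 of GRCm38, minus strand), stood at 27.4, 26.7 and 30.3 CPM in WT IP and at 4.18, 5.21 and 4.56 in cKO IP. It was 6.04-fold lower (log2 −2.60, SE 0.0813, edgeR adjusted p 2.47e-20), while its Input was low in both genotypes (1.02 ± 0.199 and 1.14 ± 0.0302 CPM, SD, n = 3 each). Its single WT consensus peak had no consensus counterpart in cKO, but it did overlap a peak called in a cKO library. Here and below, 0 consensus peaks in a genotype does not by itself mean that no library of it held a peak. Aldh1a2, whose WT-only peak is printed above, stood at 44.4, 44.4 and 45.5 CPM in WT IP and at 16.2, 15.04 and 16.6 in cKO IP (log2 −1.49, SE 0.0542, edgeR adjusted p 8.48e-19). It held 3 consensus peaks in WT and 0 in cKO. Adra2a, an adrenergic receptor, fell from 170.3, 164 and 173 CPM to 64.9, 67.3 and 69.6, and Nes, the intermediate filament nestin, from 55.1, 55.9 and 59.5 to 22.9, 22.6 and 21.8. In these genes the 3 values of a genotype lay close together and far from those of the other.

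Wdfy1, an endosomal adaptor, was lower in the IP by 1.91 (SE 0.094, edgeR adjusted p 5.14e-16), from 15.4, 13.6 and 13.4 CPM to 3.49, 3.88 and 3.89, and by 2.20 in the Input. Its level is known to differ between C57BL/6 substrains. The other substrain genes of the list used here gave no further call, since Nnt had at most 19 counts in an IP library of either genotype, and Ide stood at 42.3 and 43.5 CPM. Zfp523, a zinc finger protein, fell by 1.81 and Mucl1, a secreted mucin-like protein, by 1.74. Nags (urea cycle), Tmem176a, Camkk1 (a kinase of the calcium pathway), Plcl1 and Flrt2 fell by 1.30 to 1.43. The falls of the 15 genes ran from 1.30 to 7.51, with edgeR adjusted p of at most 9.53e-10. Of the 15, 6 were also called lower in the Input, while 3 were called higher there and 6 were not called.

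The largest rise was that of Fam181b, a gene of little known function (chromosome 7, 93079865 to 93081867, plus strand), which stood at 1.02, 1.55 and 1.15 CPM in WT IP and at 6.15, 7.35 and 7.58 in cKO IP. It was 5.67-fold higher (log2 2.50, SE 0.151, edgeR adjusted p 6.02e-14), with an Input under 0.2 CPM in every library and its only consensus peak in cKO. Ch25h, cholesterol 25-hydroxylase, stood at 4.23, 5.03 and 4.14 CPM and at 18.3, 17.3 and 16.5 (log2 1.96, SE 0.0883, edgeR adjusted p 8.4e-17). Fabp4, a fatty acid carrier of macrophages, stood at 10.96, 11.9 and 11.2 CPM and at 34.6, 34.0 and 34.8 (log2 1.60, SE 0.0595, edgeR adjusted p 1.18e-18), while its Input did not pass the test (67.1 ± 1.86 and 63.3 ± 1.38 CPM). Marco, a scavenger receptor, stood at 39.2, 38.6 and 40.1 CPM and at 92.6, 94.9 and 99.4, and Ctsk, a collagen-degrading cathepsin, at 15.1, 14.8 and 14.2 and at 32.6, 34.7 and 33.9. Hpgds, a prostaglandin D synthase, rose by 1.26, Il18, an inflammasome cytokine, by 1.42, and Perp, a junction protein and p53 target, by 1.40. Cald1, an actin-binding protein, rose by 1.37 and held 0 consensus peaks in WT and 3 in cKO, of which only 1 overlapped no peak of any WT library. The rises ran from 1.12 to 2.50, and 7 of the 15 were also called higher in the Input, 2 were called lower and 6 were not called.

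**Figure D3:**
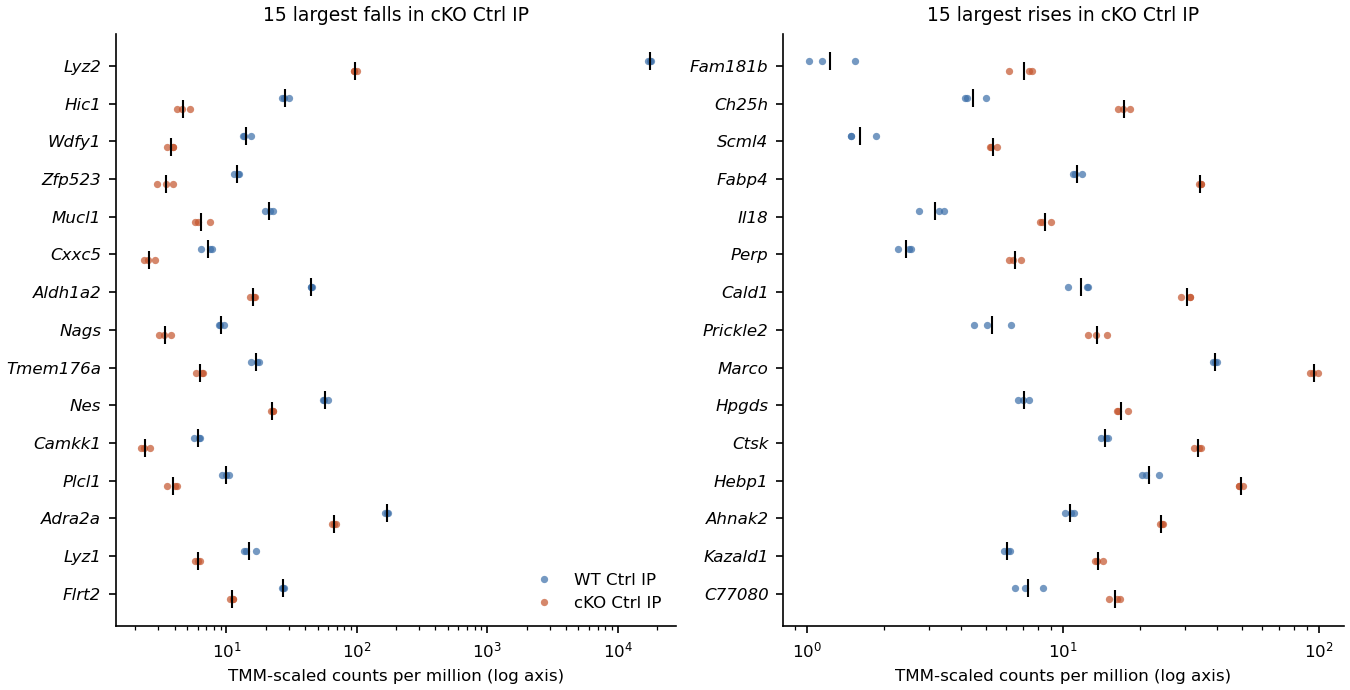
TMM-scaled CPM (log axis) in each of the 3 WT Ctrl IP (blue) and 3 cKO Ctrl IP (red) libraries for the 15 protein-coding genes with the largest falls (left) and rises (right), with the mean as a black bar. The groups do not overlap in any of the 30 genes, a condition of their choice, and Lyz2 moved from 17572 to 96.7 CPM.

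In the Inputs 3450 genes (22.8%) were called, 1897 higher (12.5%) and 1553 lower (10.3%) in cKO. Of the 1812 genes called in both kinds of library, which is 34.8% of the IP calls and 52.5% of the Input calls, 888 (49.0%) went the same way and 924 the opposite way. Across all genes, which are not independent replicates, Pearson's r between the IP and Input changes was 0.0439 and Spearman's rho 0.0368. Among 8897 genes of at least 5 CPM in all 4 groups r was 0.112 and rho 0.00204. No library is shared between these contrasts, but cells may be. The difference between the IP and the Input change was itself tested in a fit of the 12 unirradiated libraries, and 4461 genes (29.5%) were called, 2074 with a higher IP over Input in cKO (13.7%) and 2387 with a lower (15.8%). Of the 5202 IP calls, 3179 were among them. Genes with a consensus peak had more lower than higher calls of IP over Input (1220 and 739 of 5088), and genes without had 1167 and 1335 of 10051.

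**Figure D4:**
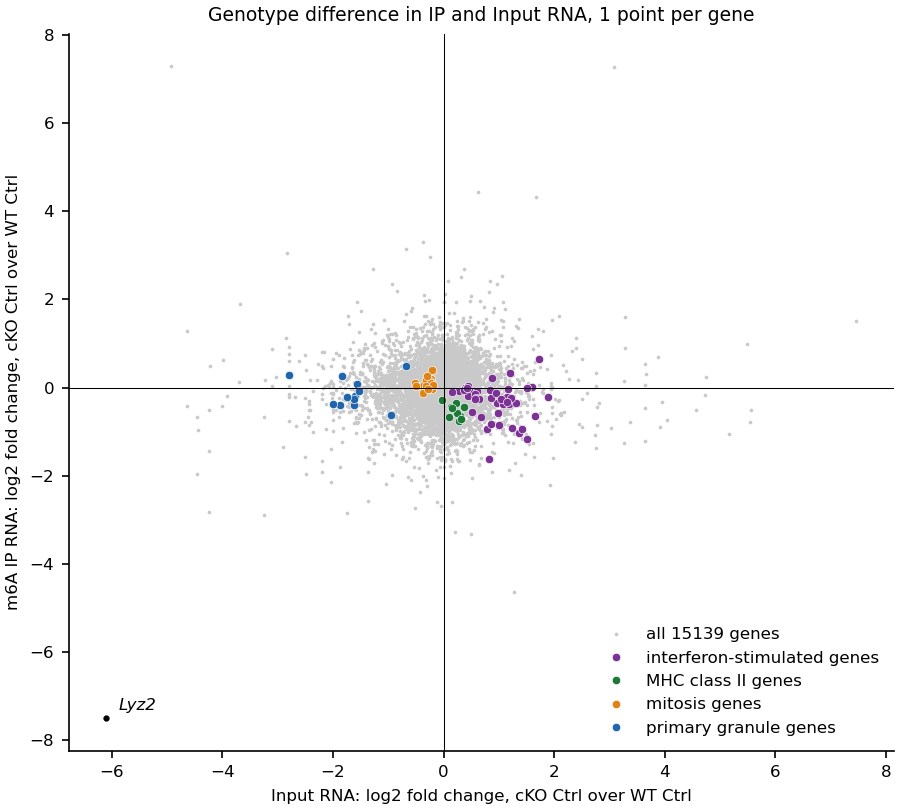
The genotype change of each gene in IP RNA (vertical) against that in Input RNA (horizontal), both as log2 fold change of cKO Ctrl over WT Ctrl, for 15139 genes (grey) and 4 gene lists (colours). Interferon-stimulated and MHC class II genes lie to the right and below 0, mitosis genes to the left and mostly above 0, and genes of the primary granule list far to the left, while Lyz2 is low on both axes.

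Gene lists were described next by their counts, set beside the shares of all genes just given. The list plot covers 28 lists with at least 8 tested members. In the IP, 17 of them had more members called lower than higher, and 16 of these 17 had more members called higher than lower in the Input. Over all 28 lists, 22 had more members higher than lower in the Input. Of the 10 lists with more members higher than lower in the IP, 3 had more lower than higher in the Input.

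MHC class II genes, which present antigen to helper T cells, were mostly lower in the IP, and more of them were higher than lower in the Input. Of 10 class II genes, 9 were lower in cKO IP and 0 higher (median −0.52), whereas 7 were higher in the Input and 0 lower (median 0.23), and IP over Input was lower for 8. Cd74, the invariant chain that guides class II molecules to the endosome, stood at 3229.6, 3197 and 3188 CPM in WT IP and at 1974, 2054 and 1976 in cKO IP (log2 −0.68, SE 0.0205, edgeR adjusted p 1.16e-20). Its Input was 4568 ± 49.7 and 4903 ± 11.1 CPM. Ciita, the class II transactivator, fell from 157, 156 and 161 CPM to 91.6, 97.7 and 100.1 and held 4 consensus peaks in WT and 0 in cKO. H2-Ab1, a chain of the I-A molecule, fell by 0.64 in the IP and rose by 0.29 in the Input. Of 15 class I presentation genes, 14 were lower in the IP and 1 higher (Erap1, a trimming peptidase, 0.12), with smaller changes (median −0.23). H2-K1 fell by 0.24, B2m by 0.17 and H2-T23, a nonclassical class I gene, by 0.55, while 9 of the 15 were higher in the Input.

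Markers of dendritic cells moved with the class II genes in the IP. Of 7 tested markers, 6 were lower and 0 higher in cKO IP, and their summed level ranged from 963.5 to 988.1 CPM in WT IP and from 730.0 to 745.0 in cKO IP. In the Inputs the sum ranged from 656.6 to 669.8 in WT and from 750.3 to 754.2 in cKO, the opposite order. Zbtb46, a transcription factor of classical dendritic cells, fell from 75.7, 77.7 and 76.3 CPM to 48.0, 50.6 and 49.2, and Ccr7, the receptor that guides mature dendritic cells to lymph nodes, from 271, 272 and 276 to 159, 162 and 165. The markers Xcr1 and Siglech had at most 9 and 7 counts in an IP library and were not tested. The part of dendritic cells in the lower class II level was not tested.

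Among chemokine ligands some fell and some rose in the IP. Ccl17 and Ccl22, ligands of CCR4 made by dendritic cells and macrophages, both fell. Ccl17 stood at 2443, 2429 and 2292 CPM in WT IP and at 1200.0, 1213 and 1209 in cKO IP (log2 −0.98, SE 0.0232, edgeR adjusted p 4.63e-23), where the Inputs held 12.2 ± 0.524 and 13.02 ± 0.523 CPM and did not differ by the test (adjusted p 0.0676). Ccl22 fell by 0.83. The monocyte attractants Ccl2 and Ccl7 were higher, Ccl2 at 161, 162 and 149.8 CPM in WT and 194, 198 and 196 in cKO, by 0.31 on the log2 scale, and Ccl7 by 0.93, and both were also higher in the Input (1.10 and 1.22). Of 11 tested CC ligands 5 were lower and 3 higher in the IP, and IP over Input was lower for 8 and higher for 0. Of 8 CXC ligands 6 were lower and 0 higher, among them Cxcl16 (−0.72) and Cxcl3 (−0.77), while Cxcl2 had 34.96, 32.5 and 33.2 CPM against 32.6, 34.1 and 32.7.

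Interferon-stimulated genes moved apart in the IP and the Input. Of 44 tested genes 42 were higher in cKO Input (median 0.91) and 0 lower, but in the IP 22 were lower, 2 higher (Oas2, 0.64, and Oas1a, 0.21) and 20 not called (median −0.23), and IP over Input was lower for 41. Cxcl10, an attractant of T cells, fell by 1.63 from 2.07, 1.70 and 1.17 CPM to 0.629, 0.509 and 0.457, which are low levels. Ifit3, which restrains viral RNA translation, stood at 5.50, 5.94 and 4.84 CPM in WT IP and at 2.70, 1.93 and 2.67 in cKO IP, while its Input was 3.88 ± 0.345 and 11.1 ± 0.344. Ifit1, from the same cluster, fell by 0.64 in the IP and rose by 1.65 in the Input, and reads of these related genes may be shared. Among the interferon-inducible GTPases, which attack vacuoles of intracellular microbes, 8 of 16 were lower in the IP and 0 higher. Of the 8 that fell, 7 were guanylate-binding genes, whereas Gbp6 had a change of 0.27 that did not pass the test. Gbp2 stood at 116, 111 and 113 CPM in WT IP and 46.1, 45.9 and 47.5 in cKO IP (log2 −1.28, SE 0.0371, edgeR adjusted p 6.37e-21), and Gbp3 fell by 1.18. Gbp2 and Gbp3 changed by 0.14 and 0.19 in the Input. Gbp5 fell by 0.87 in the IP and had 6 consensus peaks in WT and 0 in cKO. The GTPases Irgm1 and Ifi47 had IP changes of 0.01 and 0.07, which did not pass the test, beside Input rises of 0.84 and 1.18.

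Among NF-kB signalling genes, those that passed the test in the IP were lower. Of 15 inhibitors 10 were lower, 5 not called and 0 higher (median −0.22), whereas 8 were higher and 0 lower in the Input. Tnfaip3, the A20 ubiquitin editor, stood at 214, 213 and 212 CPM in WT IP and 148, 148 and 149.7 in cKO IP (log2 −0.52, SE 0.0288, edgeR adjusted p 7.02e-15), and Nfkbie, an IkB protein, fell by 0.53 and had 5 consensus peaks in WT and 0 in cKO. Nfkbia fell by 0.29. Among 10 subunits and kinases, 4 were lower (Relb −0.45, Nfkb2 −0.34, Nfkb1 −0.25, Ikbkg −0.12), 6 not called and 0 higher. In the SOCS family of cytokine feedback inhibitors 5 of 8 were lower, led by Socs2 (−0.53) and Socs1 (−0.33), and Socs4 was higher (0.16). Immediate early genes had 11 of 19 lower and 2 higher in the IP, with Jund from 1475, 1438 and 1537 CPM to 957, 1053 and 1007, and Fos in the other direction (0.52).

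Macrophage genes split within the list. Of 16 tested, 9 were lower and 5 higher in the IP. The complement genes fell together, with C1qb at 311, 305 and 309 CPM in WT IP and 182, 201 and 193 in cKO IP, C1qa lower by 0.67 and C1qc by 0.59, although all 3 were higher in the Input (0.36 to 0.73). Arg1, which degrades arginine, fell by 0.82, and Fcgr1, a high-affinity IgG receptor, by 0.61. Higher were Mrc1, the mannose receptor, at 395, 391 and 383 CPM in WT IP and 656, 619 and 621 in cKO IP (log2 0.70, SE 0.0266, edgeR adjusted p 1.76e-18), Gpnmb, a glycoprotein of lysosome-rich macrophages (0.64), Mertk, a receptor for dying cells (0.50), Adgre1 (0.38) and Cd68 (0.35). Mrc1 held 10 consensus peaks in WT and 16 in cKO. Among 12 lysosomal cathepsin genes 7 were higher and 3 lower, and Ctsd rose from 1370.5, 1358 and 1433 CPM to 1698, 1739 and 1749. Endosomal receptors of RNA were higher too, with Tlr7 at 44.5, 44.6 and 44.3 CPM and at 81.3, 69.7 and 75.4, Tlr8 by 0.37 and Tlr3 by 0.92, whereas the DNA receptor Tlr9 fell by 0.44. Over 22 Toll-like receptors and adaptors 9 were higher and 7 lower in the IP, while 15 were higher and 0 lower in the Input. IP over Input was lower for 10 of the 22 and higher for 2. Vegfa, an angiogenic factor on the list of suppressive effectors, stood at 87.2, 88.6 and 89.6 CPM and at 43.2, 45.5 and 39.8 (log2 −1.05, SE 0.0436, edgeR adjusted p 1.41e-17), with an Input of 59.9 ± 0.0733 and 61.7 ± 0.95.

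Cell cycle genes had more members higher than lower in the IP, and many did not pass the test. Of 20 mitosis genes 9 were higher and 1 lower (Nusap1, −0.13) in cKO IP, and all 20 were lower in cKO Input (median −0.30). Mki67, the proliferation antigen, stood at 1979.8, 1972 and 1937 CPM in WT IP and at 2607, 2578 and 2569.9 in cKO IP (log2 0.40, SE 0.0199, edgeR adjusted p 7.24e-16), while its Input was 316 ± 1.95 and 271 ± 3.76. Top2a rose by 0.22 in the IP and fell by 0.30 in the Input. Of 24 DNA replication genes 14 were higher and 1 lower (Dut, −0.20) in the IP, led by Gins1 (0.42) and Pole (0.33), and in the Input 1 was higher and 2 were lower. Of the cholesterol synthesis and uptake genes 13 of 21 were higher and 2 lower in the IP and 7 higher and 0 lower in the Input, and IP over Input was called for only 4. Insig1, which restrains the pathway, rose by 0.32 and the enzyme genes Hmgcs1 and Dhcr7 by 0.29 and 0.33.

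Neutrophil genes, which differed strongly in the Input, differed little in the IP. All 12 genes of the list named for primary granules were lower in cKO Input (median −1.62). In the IP 4 were lower and 1 higher (Chil3, 0.49, which is also on the monocyte list). The list is wider than its name, as it also holds secondary granule genes (Ltf, Ngp and Camp) and the transcription factor Cebpe. The summed level of the 12 ranged from 666 to 692 CPM in WT IP and from 847 to 872 in cKO IP, and from 2058 to 2108 and from 848 to 869 in the Inputs. Chil3 alone, at 452 CPM in WT IP and 633 in cKO IP, held most of the IP sum, and no other member was called higher. Of 14 mature neutrophil genes 12 were lower in the Input (median −1.09), and in the IP 2 were lower, 3 higher and 9 not called. S100a9, a calprotectin subunit, stood at 383, 404 and 376 CPM in WT IP and 391, 379.6 and 393 in cKO IP (adjusted p 0.962), against 1039 ± 13.6 and 379 ± 4.50 in the Inputs. Mpo, the granule peroxidase, fell by 0.39 in the IP and 1.62 in the Input. Summed mature neutrophil genes ranged from 1125 to 1142 CPM in WT IP and from 1126 to 1168 in cKO IP, and from 2352 to 2466 and from 1409.9 to 1432 in the Inputs. Of 10 pan-myeloid genes, Lyz2 among them, 4 were higher, 3 lower and 3 not called in the IP, and 5 were higher and 2 lower in the Input. Itgam, which encodes CD11b itself, rose by 0.29 in the IP and gave 0.04 in the Input (edgeR adjusted p 0.317).

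**Figure D5:**
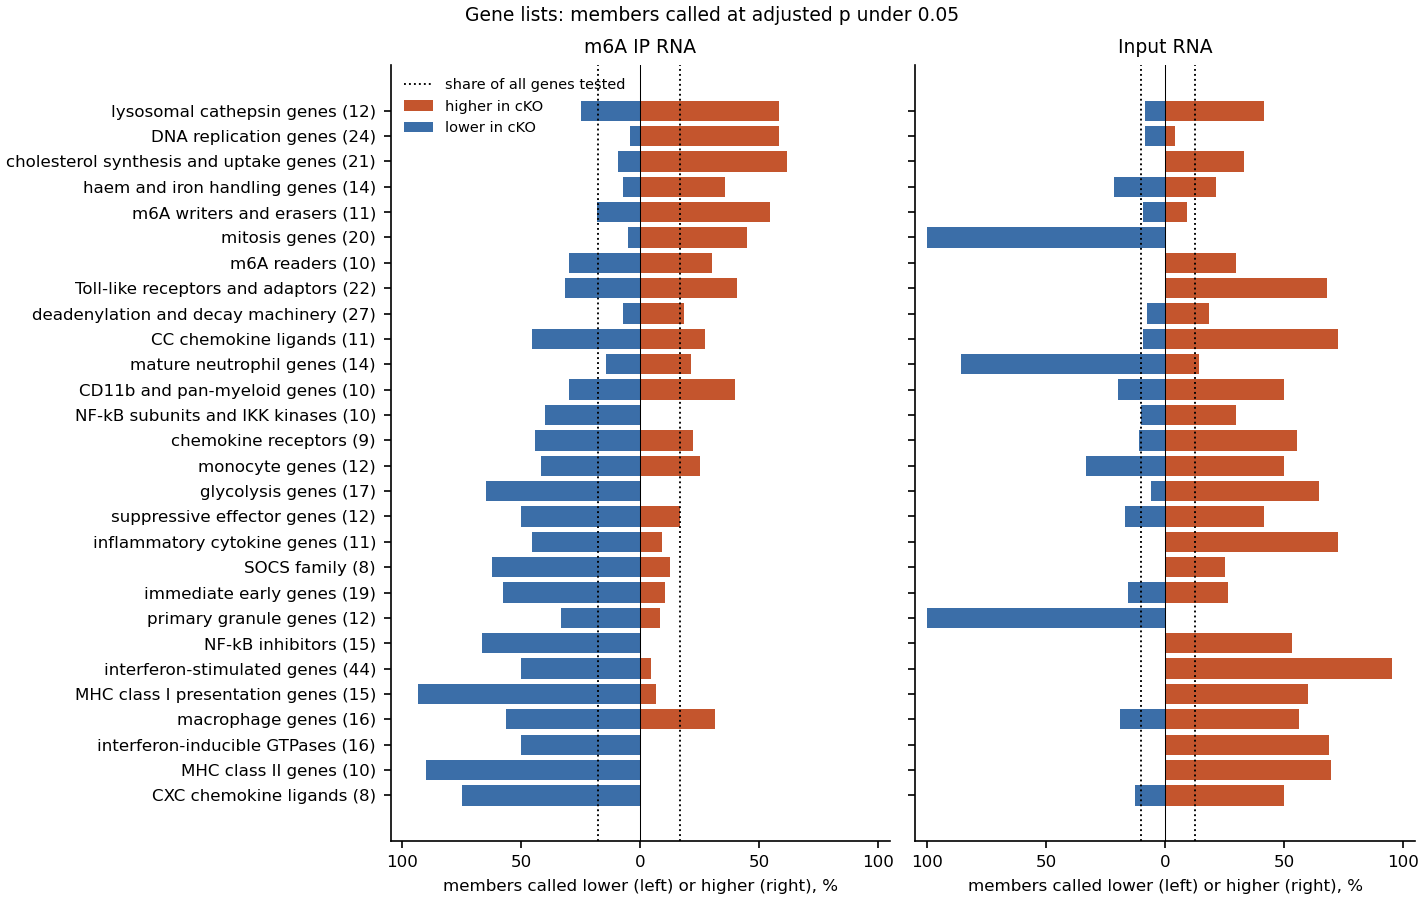
Share of each list's tested members (number in parentheses) called higher (red, right) or lower (blue, left) in cKO, in IP RNA (left panel) and Input RNA (right panel), ordered by the median IP change, with dotted lines at the shares of all genes. MHC class II and interferon lists are blue in the IP and red in the Input, and mitosis genes are red in the IP and blue in the Input.

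Genes of the m6A pathway mostly had changes of small size. Of 11 writers and erasers 6 were higher and 2 lower in the IP, by at most 0.33 on the log2 scale. The writer components Cbll1, Rbm15 and Wtap rose by 0.33, 0.25 and 0.16, the eraser Fto fell by 0.16, and Mettl3 and Mettl14 had changes of −0.10 and 0.02 that did not pass the test. Among 10 readers 3 were higher and 3 lower, with Ythdf1 at 78.6, 79.9 and 84.3 CPM in WT and 96.0, 96.0 and 94.1 in cKO (0.24), and Ythdc1 lower by 0.18. The reader Igf2bp1, an RNA-binding protein of fetal tissue, had the largest change of these lists, a fall of 1.56, at a low level (0.990, 1.79 and 0.842 CPM in WT and 0.280, 0.496 and 0.443 in cKO). Of 27 tested genes of deadenylation and decay 5 were higher and 2 lower and 20 were not called, with Tob1, an adaptor of CCR4-NOT, higher by 0.49 and Btg1, its relative, lower by 0.45. Of 5 targets that the study names, 3 were higher and 1 lower in the IP and 4 higher in the Input, a list the study chose on these samples. Tnfaip8l2 and Metrnl were higher in the IP by 0.31 and 0.14 and Socs3 was lower by 0.15, while Smpdl3b gave 0.07 without passing the test.

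Several other cell types left few counts. Of 9 T cell markers all were under 1 CPM in every IP library, as were 5 of 6 B cell markers, all 6 NK cell markers, 6 of 7 fibroblast markers and all 6 erythroid markers. Of 6 tumour epithelial markers 5 were under 1 CPM. The exception was Cdh1, which several myeloid cells also express and which stood at 104 ± 1.18 CPM in WT IP and 124 ± 2.53 in cKO IP. Summed endothelial markers ranged from 33.1 to 35.4 CPM in WT IP and from 46.1 to 52.6 in cKO IP, with Vwf higher by 0.58 on the log2 scale, and eosinophil markers from 234.4 to 249.9 and from 214.7 to 225.4. Summed platelet markers ranged from 70.4 to 74.2 CPM in WT IP and from 64.8 to 69.6 in cKO IP. In the Input 4 of 6 eosinophil markers and 5 of 6 mast cell and basophil markers were lower in cKO, and 0 were higher. Of all genes tested 10.3% were lower there. The part of such cells in any result was not tested.

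The irradiated IP libraries gave a mostly opposite picture by label. By the paper's methods, radiation was directed at the tumour in a single exposure, days before the CD11b+ cells were sorted. The irradiated IP libraries share no library with the 6 above and were fitted together with them. Among the 3574 genes called both in the unirradiated IP and between the irradiated IP libraries labelled cKO and WT (6850 genes called, 45.2%), 3185 (89.1%) went in opposite directions. The other 389 went the same way. They include the interferon-stimulated genes Ifit3 (−1.16 without irradiation, −0.45 between the irradiated libraries as labelled), Ifit1 (−0.64 and −0.51) and Rsad2 (−0.92 and −0.76). All 30 genes of largest change were opposite in the irradiated libraries, among them Lyz2 (−7.51 without irradiation, 7.78 between the irradiated libraries as labelled), Hic1 (−2.60 and 2.11) and Fam181b (2.50 and −1.81). The irradiated IP libraries carry a Lyz2 level that goes against their labels, and they enter the genotype contrast above in no result except 1 alternative fit of all 12 IP libraries.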

How the data were processed

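The deposited gene values were raw counts per library, which the authors made by trimming reads with Trimmomatic 0.39, aligning them to mm10 with HISAT using strand and the GENCODE vM19 annotation, and counting with HTSeq. RNA was poly(A)-selected, and the m6A libraries were enriched with an antibody kit. Peaks had been called by the authors with MACS2, separately for each IP library and strand. Each deposited list holds a fold enrichment (a ratio over a control library that the sources used here do not give), −log10 p-values and q-values, and a score that is a multiple of −log10 q.

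Groups came from the labels. For the 6 IP libraries, counts went into edgeR 4.0.16 (R 4.3.3) and its quasi-likelihood test (TMM, at least 10 counts in at least 3 libraries, Benjamini-Hochberg over 15139 genes, no covariates). Input changes and IP over Input came from a fit of the 12 unirradiated libraries with 4 group means, on the same genes. SEs were computed from the F statistic. CPM were scaled by TMM within IP and within Input, and marker sums are unscaled CPM, so levels of IP and Input are on different scales. Fits were tested on simulated counts. Symbols and positions came from GENCODE vM21 (GRCm38), which matched 54409 of 54446 identifiers. Reads that fit no gene (2.97 to 5.30% of the unirradiated libraries' reads) were left out. Consensus peaks overlapped by at least 1 base in all 3 libraries of a genotype. Named genes were the 15 protein-coding genes with the largest rise and the 15 with the largest fall among genes called, not overlapping and of at least 5 CPM in a group, the 8 and 8 most extreme for IP over Input (at least 5 CPM in a group), and examples from the lists. Named peaks were the 8 exonic peaks of highest mean fold in each direction. The members and the 43 gene lists were chosen with earlier results of these data known. Alternatives were other scalings, filters and fits, DESeq2 1.42.0, a replicate block and leaving out each library. Irradiated Inputs and irradiated peak lists were not used here. Some members of the lists and named sets are not reported here.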

Additional observations from a re-analysis of the deposited data

Results flagged for a closer look

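The genotype difference of 4461 genes differed between IP and Input by the test of the difference itself (edgeR, adjusted p under 0.05, 12 unirradiated libraries). The 8 protein-coding genes with the lowest IP over Input in cKO were Car4 (log2 difference −3.18), Hic1 (−2.76), Ifit3 (−2.67), Mucl1 (−2.39), Ifit1 (−2.30), Rsad2 (−2.16), Rtp4 (−2.12) and BC147527 (−2.03). For Ifit3, Ifit1, Rsad2 and Rtp4, genes induced by interferon, the Input was higher in cKO by 1.24 to 1.89 while the IP changed by −0.23 to −1.16, and for Rtp4 the IP change did not pass the test (adjusted p 0.0542). Car4, a membrane carbonic anhydrase, stood at 92.5, 92.0 and 85.7 CPM in WT IP and 146 in each cKO IP library, but its Inputs held 0, 0 and 1 counts in WT and 10, 9 and 1 in cKO, so its difference rests on almost no Input reads.

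The 8 with the highest IP over Input in cKO were Prom1 (2.4), Olfm4 (2.39), Retnlg (2.27), Fam181b (2.19), Mgam (2.09), Pknox2 (2.07), Abca13 (1.94) and Spic (1.76). Prom1, Olfm4, Retnlg, Mgam, Pknox2 and Abca13 were lower in cKO Input, by 1.33 to 1.66. Olfm4, a neutrophil granule protein, stood at 19.4 ± 0.774 and 6.70 ± 0.225 CPM in the Inputs and at 1.38, 1.15 and 0.759 against 2.74, 1.5004 and 1.72 in the IP. The IP changes of Retnlg and Mgam did not pass the test.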

How the results depend on the processing

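The number of genes called in the IP stayed within 1.5 times of 5202 under every alternative, from 4396 to 4933 when a library was left out, 5128 without a count filter, 5248 with at least 50 counts, 5194 with DESeq2, and 5527 with all 12 IP libraries in the fit. In that last fit 57.9% of calls were higher, against 48.7%, and the median change over all genes was 0.03. Input calls ranged from 2863 to 3037 without a library, and calls of IP over Input from 4076 to 4391. Same-numbered IP libraries did not deviate together (r 0.0173, 0.0159 and 0.0364), although each library correlated best with its own number, so the numbers give no pairing. A replicate block called 5258 genes in the IP, 3226 in the Input and 4251 for IP over Input. The numbers of genotype-specific peaks moved most. With a fold of at least 4 in all 3 libraries they were 125 in WT and 43 in cKO, in place of 587 and 211. Without a library they ranged from 792 to 1028 in WT and from 328 to 455 in cKO, since fewer libraries then have to hold or lack a peak. The IP changes of the 30 genes of largest change kept their direction and their call under all 13 alternatives. Among the 16 genes for IP over Input, Car4 lost its call without WT Ctrl Input replicate 1 (−2.74) or 2 (−2.71) or cKO Ctrl Input replicate 1 (−2.73), and Fam181b without WT Ctrl Input replicate 1 (2.12) or 2 (1.995). Of 5936 further list member and alternative combinations, 145 lost and 54 gained a call, and 0 called changes turned direction.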

Other observations

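Bc1, a small noncoding RNA of neurons that the rule for protein-coding genes leaves out, stood at 12.4 CPM on average in WT IP and 1.27 in cKO IP (log2 −3.29), the largest fall after Lyz2 among genes of at least 5 CPM in either group, while its Input change was 0.20. It was chosen after its values were seen.

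Glycolysis genes were mostly lower in cKO IP, 11 of 17 with 0 higher, by at most 0.29 on the log2 scale (Pfkp), and 11 of 17 were higher in the Input. Of the 14 haem and iron handling genes 5 were higher and 1 lower (Cd163, −0.66) in the IP. The ferritin chains Fth1 and Ftl1 rose by 0.25 and 0.11, with Fth1 at 4162, 4116 and 4089 CPM in WT IP and 4973, 4869 and 4869.9 in cKO IP. Of 11 tested inflammatory cytokine genes 5 were lower and 1 higher (Il18) in the IP. Il1b, the inflammasome product, was lower in the IP by 0.73 and higher in the Input by 0.74.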
